A study of Mus musculus with 15 samples.

Results

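The comparison described here is that of 5XFAD against wild-type (WT) mouse cortex at 3 months of age, the youngest age of a series that also covers 6 and 12 months. Its members are the libraries labelled as 3-month 5XFAD or 3-month WT, which are 2 and 2, 4 of the 15 libraries in all. 5XFAD is a C57BL/6J line whose labels give 5 familial Alzheimer's disease mutations. The controls are non-transgenic mice of the same strain, and no agent was given to either group. As background, the line carries human transgenes, among them APP, driven by the mouse Thy1 promoter, which is active in neurons, so mutant protein is made there from early life and above normal levels. RNA of whole cortex was sequenced as pairs of 100 bases and counted per gene. The question posed by the design is which transcripts already differ between genotypes at this early age.

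In this line amyloid is deposited early, and microglia, the resident macrophages of the brain, gather at the plaques. There they take up a state called disease-associated, in which the receptor Trem2 and its adapter Tyrobp drive the induction of lectins, chemokines, lysosomal proteases and lipid-handling proteins, while markers of resting (homeostatic) microglia decline per cell. Astrocytes respond with the filament protein Gfap and with complement. Neurons, which make the transgene product in the endoplasmic reticulum (ER), can answer a load of misfolded protein with the unfolded protein response, a programme that raises ER chaperones.

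The 4 libraries held 167.7 M and 178.9 M counts in WT and 202.8 M and 212.9 M in 5XFAD, against 105.2 M to 226.7 M in the later libraries. Values below are in CPM, which are counts divided by the TMM-scaled library size and brought to a common total, and stand in the order replicate 1, replicate 2. Xist, the RNA of X inactivation, stood at 0.301 and 274 CPM in WT and 0.454 and 333 CPM in 5XFAD, so replicate 1 was male and replicate 2 female in both genotypes. The sexes were therefore balanced, and the male pair and the female pair each give the genotype difference within 1 sex, although with 1 library on each side. Markers of cortical neurons were present in all 4 libraries. Slc17a7, the vesicular glutamate transporter of cortical excitatory neurons, ranged from 1355 to 1627 CPM at 3 months against 1020 to 1573 CPM later.

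WT replicate 1 stood apart from the other libraries of this age in markers of neighbouring tissue. The 15 markers of striatal neurons summed to 2060 CPM in it, and to 438 CPM in WT replicate 2, 453 CPM in 5XFAD replicate 1 and 429 CPM in 5XFAD replicate 2. Drd2, the D2 dopamine receptor of striatal neurons, was at 56.7 CPM in that library and at 1.47, 1.19 and 2.07 CPM in the other three. Myelin genes summed to 3887 CPM in it against 2019, 2364 and 2239 CPM. In 5XFAD replicate 1, Ttr, the transthyretin of choroid plexus, was at 24.8 CPM against 3.2, 0.815 and 1.85 CPM in WT replicate 1, WT replicate 2 and 5XFAD replicate 2. Many list medians below are given also with 1 library left out, chiefly where that moved them by more than 1.5 times. Not every such move is given for medians near 0. Over 10197 genes with at least 10 CPM, the SD of the log2 difference between libraries was 0.296 between the WT replicates and 0.316 between the 5XFAD replicates. It was 0.219 in the male pair and 0.247 in the female pair of unlike genotype. Replicates of a genotype, which differ in sex, thus lay farther apart than the genotypes did within a sex. Between libraries unlike in both genotype and sex it was 0.256 (WT replicate 2, 5XFAD replicate 1) and 0.353 (WT replicate 1, 5XFAD replicate 2). The former also lay below both values within a genotype, and the part of sex in these distances was not tested.

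Thy1 alone passed the test at 3 months. It is a surface glycoprotein of neurons, and Thy1 sequence is part of the transgene cassettes. It stood at 634 and 676 CPM in WT and at 2051 and 2414 CPM in 5XFAD, with no overlap. Thy1 rose by 1.77 ± 0.13 (log2 fold change ± SE, edgeR adjusted p = 0.000104), which made it 1 of 21555 genes tested (0.00464%) to be called higher, and none was called lower. The rise was 1.69 in the male pair and 1.84 in the female pair, and Thy1 stayed called in every one of the 14 alternative fits. The 6-month and 12-month values were 1.87 and 1.90, and the change from 3 months was 0.10 (unadjusted p = 0.575) and 0.13 (unadjusted p = 0.477). The counts do not separate endogenous Thy1 from cassette sequence.

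App, the mouse counterpart of one transgene, encodes the amyloid precursor protein. It stood at 1713 and 1765 CPM in WT and 1888 and 1602 CPM in 5XFAD, so the groups overlapped, with a log2 fold change of 0.00 ± 0.11. How many reads of the human transcript reached this mouse gene entry was not tested.

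Below the threshold of the main test, an unadjusted p under 0.05 was reached by 240 genes higher in 5XFAD (1.11% of those tested) and 257 lower (1.19%). With 2 libraries a side, the groups did not overlap in 2862 genes with 5XFAD higher (13.3%) and 2461 with 5XFAD lower (11.4%). These shares are the background for the gene groups below. The gene lists were chosen with earlier results of these data known, so setting them beside these shares describes a list and does not test it. The counts at an unadjusted p under 0.05 depended on the libraries and the scaling: they were 384 higher and 200 lower without WT replicate 1, 388 and 469 without WT replicate 2, 670 and 1377 without 5XFAD replicate 1, 183 and 190 without 5XFAD replicate 2, and 355 and 153 with library totals in place of TMM. DESeq2 on the same genes called 10 higher (0.0464%) and 0 lower: Thy1, the microglial genes Clec7a, Ccl6, Itgax, Cst7, Ccl3, Ccl4 and Cd52, and the genes Asb10 and Vmn2r-ps3. DESeq2 found 627 genes at an unadjusted p under 0.05.

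Of the 9 genes besides Thy1 that DESeq2 called, 7 belong to the disease-associated microglia programme, and all 7 were low or nearly absent in both WT libraries. Cst7, an inhibitor of lysosomal cysteine proteases, was at 0.0307 and 0.116 CPM in WT and 6.52 and 5.78 CPM in 5XFAD, a log2 fold change of 6.36 ± 0.92 (adjusted p = 0.138 in edgeR, 1.12e-06 in DESeq2). Clec7a, the beta-glucan receptor Dectin-1, was at 0.123 and 0.0289 CPM against 3.45 and 2.61 CPM, or 20 and 5 counts against 692 and 557. Its log2 fold change was 5.33 ± 0.68 (adjusted p = 0.0676 in edgeR, 1.09e-11 in DESeq2). Both 5XFAD libraries thus lay far above both WT libraries in each gene.

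Itgax, the integrin chain CD11c that marks plaque-associated microglia, was at 0.166 and 0.0867 CPM in WT and 2.96 and 2.32 CPM in 5XFAD, with a log2 fold change of 4.39 ± 0.68. The chemokine gene Ccl6 was at 0.724 and 0.641 CPM against 5.09 and 4.31 CPM, with 2.78 ± 0.43. The chemokine gene Ccl3 was at 0.16 and 0.116 CPM against 1.05 and 1.21 CPM, with 3.04 ± 0.56. No groups overlapped among these chemokine and integrin genes. With 0.1 CPM added, the male and the female pair gave log2 differences of 3.53 and 3.70 for Itgax. The pairs gave 2.66 and 2.57 for Ccl6 and 2.15 and 2.61 for Ccl3. The added 0.1 CPM is near the WT level of Itgax and Ccl3 and makes their pair differences smaller. Ccl4, a chemokine that acts on the same receptor as Ccl3, had 10 counts in WT and 144 in 5XFAD, a ratio of 11.7 with an exact 95% interval of 6.18 to 24.9 that covers counting error only. Cd52, a small surface glycoprotein of leukocytes, was at 0.736 and 0.959 CPM in WT and 2.5 and 3.47 CPM in 5XFAD (1.81 ± 0.41). Under edgeR the adjusted p-values of these genes ran from 0.138 for Ccl4 and Ccl6 through 0.144 for Itgax and 0.440 for Ccl3 to 1 for Cd52. Fitted to the 3-month libraries alone, edgeR called Cst7, Ccl6 and Itgax besides Thy1, and with a stricter filter on low counts it called Clec7a and Cst7 besides Thy1.

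**Figure D1:**
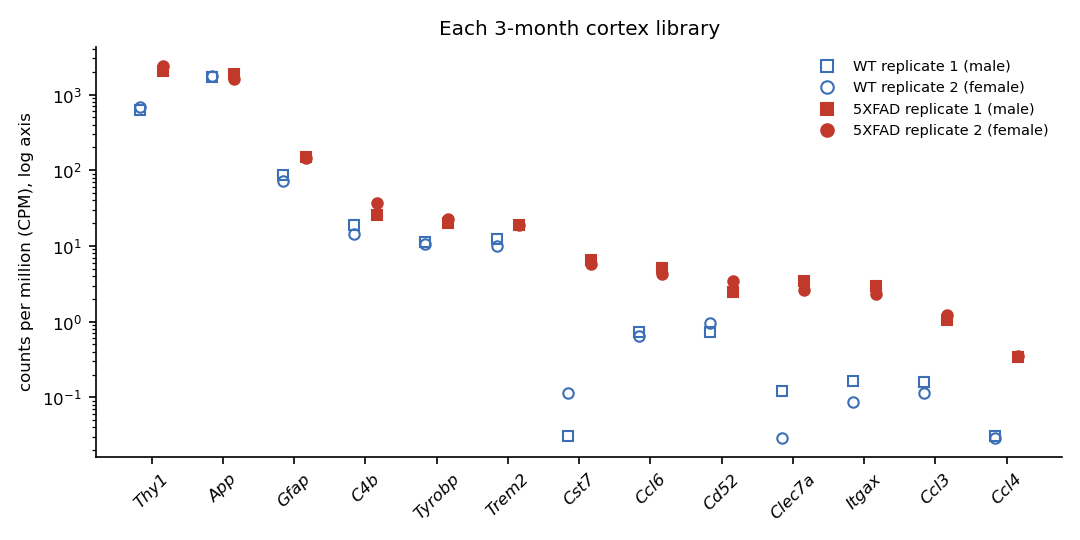
Level of 13 genes in each of the 4 libraries of 3 months, in CPM on a log axis. Open blue symbols are WT, filled red symbols 5XFAD, squares male replicates and circles female replicates. Apart from App, no 5XFAD symbol falls to the level of a WT symbol, and the gap is widest for Cst7, Clec7a and Itgax, which were below 0.2 CPM in both WT libraries.

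The 36 listed genes of disease-associated microglia lay higher in 5XFAD almost throughout. There were 34 with a positive log2 fold change, 27 whose groups did not overlap with 5XFAD higher and 10 with an unadjusted p under 0.05, and the list's median was 0.44 against -0.00 over all genes tested. The median was 0.50 without WT replicate 1, and 8 genes then had an unadjusted p under 0.05. Of the 12 receptors and adapters, 11 did not overlap and the median was 0.56. Tyrobp, the signalling adapter of Trem2, was at 11.2 and 10.7 CPM in WT and 19.9 and 22.9 CPM in 5XFAD (0.97 ± 0.38, unadjusted p = 0.0251, and 0.0601 without WT replicate 1). Trem2, the lipid-sensing receptor itself, was at 12.2 and 9.91 CPM against 19.0 and 19.2 CPM (0.79 ± 0.37, unadjusted p = 0.0581).

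Among the 11 proteases and lysosomal proteins, 9 did not overlap, with a median of 0.44. Lyz2, the lysozyme of macrophages, was at 7.36 and 5.99 CPM against 12.9 and 13.6 CPM (0.99 ± 0.42, unadjusted p = 0.0388, and 0.0551 without WT replicate 1). Cd68, a glycoprotein of macrophage lysosomes, was at 7.96 and 5.83 CPM against 12.2 and 13.5 CPM (0.90 ± 0.40). Ctsd, the lysosomal aspartic protease cathepsin D, was at 324 and 327 CPM against 420 and 459 CPM (0.43 ± 0.30, unadjusted p = 0.175). In all 3 every 5XFAD library was above both WT libraries. The chemokine and growth factor genes did not overlap in 5 of 7, with a median of 0.27 that was 0.59 without WT replicate 2 and 0.48 without 5XFAD replicate 1. The 26 general lysosomal genes had a smaller median, 0.08, but 11 did not overlap with 5XFAD higher and 0 with 5XFAD lower. Over all genes 13.3% did not overlap with 5XFAD higher. Csf1, the growth factor on which microglia depend, was at 20.8 and 23.8 CPM against 25.1 and 28.8 CPM (0.27 ± 0.19). Spp1, which encodes osteopontin and is abundant in plaque microglia of old animals, overlapped at 8.28 and 8.89 against 9.35 and 8.53 CPM.

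Of the 6 lipid-handling genes, 2 did not overlap with 5XFAD higher and 1 with 5XFAD lower. Their median was 0.12, with -0.01 in the male and 0.48 in the female pair. Leaving out 1 library gave 0.26 without WT replicate 1, 0.30 without 5XFAD replicate 1 and -0.01 without 5XFAD replicate 2. Apoe, the main lipid carrier of the brain, overlapped at 961 and 923 CPM in WT and 881 and 1192 CPM in 5XFAD. Lpl, which releases fatty acids from lipoproteins, overlapped at 23.5 and 15.4 CPM against 18.7 and 23.4 CPM. Soat1, which esterifies cholesterol for storage, was slightly lower at 17.9 and 18.2 CPM against 16.9 and 16.4 CPM.

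Markers of homeostatic microglia did not lie lower at this age. All 20 had a positive log2 fold change, 11 did not overlap with 5XFAD higher, 0 reached an unadjusted p under 0.05, and the median was 0.25. It was 0.09 in the male pair and 0.42 in the female pair, 0.41 without WT replicate 1 and 0.12 without 5XFAD replicate 2. The purinergic receptor P2ry12 was at 38.2 and 31.8 CPM in WT and 41.4 and 42.5 CPM in 5XFAD (0.26 ± 0.20). Tmem119, a surface protein that marks microglia among brain cells, overlapped at 24.0 and 23.1 CPM against 20.7 and 28.2 CPM. In bulk tissue fewer or more cells of a type and less or more RNA per cell cannot be told apart, and the summed level of the homeostatic markers was 1202 and 1205 CPM in WT against 1387 and 1310 CPM in 5XFAD.

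Complement genes lay higher as well. Of 18 listed, 11 did not overlap with 5XFAD higher, 0 did with 5XFAD lower and 0 reached an unadjusted p under 0.05, with a median of 0.45. The median was 0.18 in the male and 0.38 in the female pair, and 0.27 without 5XFAD replicate 2. The classical pathway and C3 accounted for 7 of the 11. C4b, a classical pathway protease substrate that astrocytes and oligodendrocytes make, was at 18.7 and 14.3 CPM in WT and 25.9 and 37.5 CPM in 5XFAD (0.94 ± 0.45, unadjusted p = 0.0598). Its difference was 0.46 in the male pair and 1.39 in the female pair, and its reads may be shared with the near-identical C4a. C1qa, C1qb and C1qc, the 3 chains of the pattern-recognition molecule C1q, had log2 fold changes of 0.49, 0.52 and 0.49, each without overlap.

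Interferon-stimulated genes were higher by a similar amount. Of 26, 25 had a positive log2 fold change, 15 did not overlap with 5XFAD higher, and 2 reached an unadjusted p under 0.05, with a median of 0.34 (0.23 in the male pair, 0.40 in the female pair, 0.18 without 5XFAD replicate 2). Bst2, or tetherin, which holds budding viruses to the cell surface, was at 2.28 and 2.35 CPM in WT and 3.5 and 4.53 CPM in 5XFAD (0.80 ± 0.31, unadjusted p = 0.024). Irf7, a transcription factor that amplifies the interferon response, was at 2.15 and 2.15 CPM against 2.96 and 3.81 CPM (0.65 ± 0.27, unadjusted p = 0.0314). Their unadjusted p-values were 0.0729 and 0.0782 without WT replicate 1. In both genes the female 5XFAD library was the highest of the 4.

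Genes induced by interferon carry the interferon-stimulated response element, whose core was searched here as GAAANNGAAA on both strands of the 250 bases before each gene's start, in the RefSeq promoter table of build GRCm38.p6. It was present in 9 of the 19 interferon list genes found in that table and in 3.46% of 27025 genes in it. Of the 9, 7 did not overlap with 5XFAD higher, against 15 of all 26 list genes. The list is one of interferon-stimulated genes, so its share of matches follows from how it was chosen. Bst2 is shown because it had the smallest p of the list and holds 2 overlapping copies. The stretch runs from 150 to 31 bases before its start on the minus strand (chr8:71537503-71537622), and the capitals mark the copies.
Bst2: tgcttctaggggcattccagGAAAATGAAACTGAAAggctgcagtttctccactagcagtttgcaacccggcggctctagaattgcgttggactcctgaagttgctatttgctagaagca
Irf7 held no match in this window. A match describes the sequence and not a bound site.

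Antigen presentation genes followed the same order of size. Of 15 tested, 9 did not overlap with 5XFAD higher and 0 reached an unadjusted p under 0.05, with a median of 0.31 that was 0.15 without 5XFAD replicate 2. B2m, the invariant chain of MHC class I, was at 81.9 and 69.6 CPM in WT and 98.6 and 99.2 CPM in 5XFAD (0.38 ± 0.20, unadjusted p = 0.0712). Cd74, the invariant chain of MHC class II, was at 3.42 and 3.26 CPM against 4.08 and 4.55 CPM (0.37 ± 0.45). The class I gene H2-Q7, among the 10 largest increases, was at 1.07 and 1.77 CPM against 1.88 and 5.15 CPM (1.31 ± 0.47), mostly from the female 5XFAD library, and its reads may be shared with related H2 genes. Markers of peripheral leukocytes gave no common direction, with 5 of 15 not overlapping with 5XFAD higher and 2 with 5XFAD lower and a summed level of 33.1 and 15.8 CPM in WT against 17.2 and 17.7 CPM in 5XFAD.

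Among the reactive astrocyte genes Gfap lay higher in 5XFAD. It was at 85.7 and 72.2 CPM in WT and at 148 and 147 CPM in 5XFAD, without overlap (0.90 ± 0.37, unadjusted p = 0.0306; 0.79 in the male and 1.03 in the female pair). Of the 22 reactive astrocyte genes, 6 did not overlap with 5XFAD higher and 2 with 5XFAD lower. An unadjusted p under 0.05 was reached by 2 of the 22 with 5XFAD higher and by 1 with 5XFAD lower. The median of the list, 0.13, turned to -0.07 without 5XFAD replicate 2 and was 0.30 without 5XFAD replicate 1. Serpina3n, a secreted protease inhibitor of reactive astrocytes, was at 11.4 and 15 CPM against 17.7 and 18.5 CPM (0.46 ± 0.44). Nes, the intermediate filament nestin, lay the other way at 28.1 and 27.4 CPM against 17.0 and 23.9 CPM (-0.44 ± 0.18, unadjusted p = 0.0296, and 0.114 without WT replicate 1). The 16 markers of astrocyte identity had a median of 0.06, ranging from -0.00 to 0.16 with 1 library left out.

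Genes of the unfolded protein response lay lower in 5XFAD. Of 20 tested, 18 had a negative log2 fold change, 12 did not overlap with 5XFAD lower and 1 with 5XFAD higher, and 5 reached an unadjusted p under 0.05, all lower, with a median of -0.18. The pattern lay in the 14 ER chaperones and redox enzymes, of which all 14 were negative and 11 did not overlap, and not in the 6 sensors and transcription factors, of which 1 did not overlap in each direction. Hspa5, the ER chaperone BiP and the standard marker of this response, was at 343 and 366 CPM in WT and 264 and 248 CPM in 5XFAD, a log2 fold change of -0.47 ± 0.13 (unadjusted p = 0.00304, adjusted p = 1). Without WT replicate 1 the Hspa5 value was -0.50, with an unadjusted p of 0.00814. Hspa5 was thus lower in each 5XFAD library than in each WT library, by 0.38 in the male and 0.57 in the female pair.

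The other 4 of these genes below an unadjusted p of 0.05 were Manf, Herpud1, Hyou1 and Dnajc3. Manf, a secreted survival factor held in the ER by BiP, was at 42.1 and 41.0 CPM against 35.7 and 33.4 CPM (-0.27 ± 0.09). Herpud1, a membrane component of ER-associated degradation, was at 65.9 and 62.5 CPM against 54.7 and 46.0 CPM (-0.35 ± 0.13). Both secreted factor and degradation component thus lay below WT without overlap. Hyou1, a large ER chaperone that exchanges nucleotide on BiP, was at 146 and 160 CPM against 126 and 138 CPM (-0.21 ± 0.08). Dnajc3, a co-chaperone of BiP, was at 63.1 and 61.7 CPM against 52.0 and 46.5 CPM (-0.34 ± 0.14). All 4 were lower in both 5XFAD libraries. Without WT replicate 1, 2 of the list's genes, Hspa5 and Hyou1, kept an unadjusted p under 0.05 and the list's median was -0.21. Among 14 cytosolic heat shock genes 13 were negative and 3 did not overlap with 5XFAD lower, with a median of -0.13 that was -0.02 without WT replicate 2.

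Promoters of ER chaperones are known for the ER stress response element, searched here as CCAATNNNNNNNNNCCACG on both strands of the same 250-base windows. It was found in 6 of the 17 unfolded protein response genes in the table and in 0.13% of 27025 genes. Of the 6, 5 had groups that did not overlap with 5XFAD lower. That compares with 12 of all 20 list genes and 11 of the 14 chaperones and redox enzymes. This list too was chosen by known role, so its share of matches follows from that choice. The elements are shown because they are the sequence that these 6 members share. Each is given on the strand on which it reads in this order, with 10 flanking bases on each side and the element in capitals.
Hspa5 (chr2:34772015-34772053, plus strand): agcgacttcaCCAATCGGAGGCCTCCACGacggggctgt
Dnajc3 (chr14:118937817-118937855, plus strand): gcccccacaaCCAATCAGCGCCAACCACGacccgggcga
Pdia6 (chr12:17266481-17266519, plus strand): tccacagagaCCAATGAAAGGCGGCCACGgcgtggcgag
Calr (chr8:84847065-84847103, plus strand, the gene being on the minus strand): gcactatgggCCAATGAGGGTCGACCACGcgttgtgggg
Creld2 (chr15:88819510-88819548, minus strand, the gene being on the plus strand): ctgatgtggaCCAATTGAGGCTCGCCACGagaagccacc
Hsp90b1 (chr10:86705628-86705666, minus strand): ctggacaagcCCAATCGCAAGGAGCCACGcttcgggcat
Hsp90b1, the other copy (chr10:86705523-86705561, plus strand): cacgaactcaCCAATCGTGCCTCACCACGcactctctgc
The log2 fold changes of these genes were -0.47 for Hspa5, -0.34 for Dnajc3, -0.20 for Pdia6, -0.17 for Calr, -0.23 for Creld2 and -0.20 for Hsp90b1. The Creld2 groups overlapped. List genes in the table without a match ran from -0.35 for Pdia4 to 0.09 for Atf4, and Herpud1 (-0.35) was among them. Lower values were thus not confined to genes that hold the element. The element of Hspa5 lies from 65 to 47 bases before the start, in this stretch of 120 bases that ends at the start (chr2:34771970-34772089, plus strand).
Hspa5 promoter: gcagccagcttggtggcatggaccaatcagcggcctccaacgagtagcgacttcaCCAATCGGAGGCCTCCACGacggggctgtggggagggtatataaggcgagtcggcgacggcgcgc

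Across ages, the chaperones stood highest in the WT libraries of 3 months. The mean of log2(CPM + 1) over the 14 chaperones was 6.00 and 5.99 in the WT libraries and 5.75 and 5.77 in the 5XFAD libraries. At 6 months it ranged from 5.57 to 5.63 in WT and from 5.57 to 5.86 in 5XFAD, and at 12 months from 5.63 to 5.70 and from 5.79 to 5.86. The 3-month WT libraries were thus the 2 highest of all 15, and the 3-month 5XFAD libraries lay within the range of the later ones. Hspa5 itself was at 200 to 236 CPM in the later WT libraries. The Hspa5 genotype effect at 6 months exceeded that at 3 months by 0.45 (unadjusted p = 0.0186). The Hspa5 effect at 12 months exceeded that at 3 months by 0.55 (unadjusted p = 0.00792). Of the 14 chaperones, 5 had a genotype effect higher at 6 than at 3 months at an unadjusted p under 0.05, against 3.8% of all genes, and 6 at 12 months, against 7.68%. None of these differences between ages passed adjustment.

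Genes of cholesterol synthesis lay higher in 5XFAD by a small and even amount. All 19 enzymes tested had a positive log2 fold change, 13 did not overlap, 8 reached an unadjusted p under 0.05, and the median was 0.21, with 0.25 in the male pair and 0.22 in the female pair. Fdft1, the squalene synthase at the branch point to sterols, was at 80.6 and 95.4 CPM in WT and 115 and 116 CPM in 5XFAD (0.39 ± 0.10, unadjusted p = 0.00126). Fdps, which makes farnesyl diphosphate upstream of it, was at 42.9 and 51.3 CPM against 58.1 and 65.2 CPM (0.39 ± 0.10, unadjusted p = 0.00183). For both, each 5XFAD library lay above each WT library. Sqle, the squalene epoxidase, was at 53.4 and 60.3 CPM against 70.3 and 69.9 CPM (0.30 ± 0.10). Nsdhl, which removes methyl groups from sterols, was at 24.6 and 24.2 CPM against 30.4 and 32.0 CPM (0.36 ± 0.10). These 4 enzymes did not overlap between genotypes.

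Sterol-responsive genes outside the pathway showed both directions. Insig1, which retains the sterol sensor in the ER, was at 65 and 71.9 CPM in WT and 87.7 and 85.5 CPM in 5XFAD (0.34 ± 0.12). Abcg1, a sterol exporter induced when sterol is abundant, lay lower at 62.8 and 57.3 CPM against 55.3 and 45.1 CPM (-0.26 ± 0.12, unadjusted p = 0.0421). Of 18 regulators and transporters, 3 did not overlap in each direction and the median was -0.03. Without WT replicate 1 the synthesis list had a median of 0.22 and 5 genes at an unadjusted p under 0.05, and none of the 18 regulators and transporters reached it.

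At the level of the list, WT replicate 1 was the lowest of all 15 libraries in cholesterol synthesis, with a mean log2(CPM + 1) of 5.28, followed by WT replicate 2 with 5.43. The 5XFAD libraries of 3 months were at 5.52 and 5.61. In later libraries WT lay between 5.43 and 5.52 and 5XFAD between 5.59 and 5.86, so 5XFAD libraries were above WT libraries of their age at all 3 ages. The medians over the list were 0.26 at 6 and 0.17 at 12 months, and under edgeR 0 of the 19 enzymes had a genotype effect at 6 months that differed from that at 3 months at an unadjusted p under 0.05. The median of this list thus stayed within 0.17 to 0.26 over the 3 ages, where that of the disease-associated microglia genes went from 0.44 through 1.85 to 2.26.

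**Figure D2:**
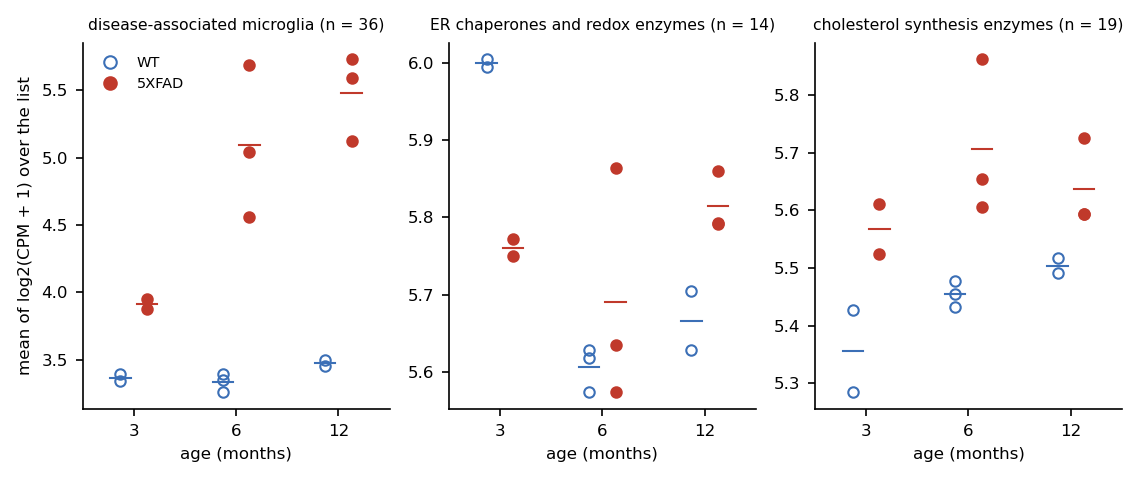
Mean of log2(CPM + 1) over 3 gene lists in each of the 15 libraries, by age and genotype; open blue circles are WT, filled red circles 5XFAD, bars group means, and the vertical axes differ and do not start at 0. The microglial list is at 3.88 and 3.95 in 5XFAD against 3.40 and 3.34 in WT at 3 months and farther apart later, the ER chaperones are highest in the WT libraries of 3 months, and the cholesterol list lies higher in 5XFAD at each age.

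Neuronal lists lay close to the median of all genes. The 29 synaptic genes had a median of -0.06, with 0 not overlapping in the higher and 2 in the lower direction. That median was -0.01 without WT replicate 2 and -0.02 without 5XFAD replicate 1. The 10 markers of excitatory neurons all overlapped, with a median of -0.03 (-0.06 without WT replicate 2). The median of the 13 inhibitory markers was 0.02, ranging from -0.03 to 0.08 with 1 library left out. Genes induced by neuronal activity depended on the library. Their median was 0.19, and -0.12 without WT replicate 1, 0.77 without WT replicate 2, 0.32 without 5XFAD replicate 1 and 0.06 without 5XFAD replicate 2, with 0.61 in the male and -0.09 in the female pair. Homer1, whose short form is an activity-induced scaffold of the postsynapse, was lower at 264 and 291 CPM in WT and 204 and 202 CPM in 5XFAD (-0.45 ± 0.19, unadjusted p = 0.0333, and 0.0609 without WT replicate 1). The later WT range of Homer1 was 147 to 171 CPM, below all 4 libraries of 3 months.

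Genes that make or degrade amyloid-beta showed small differences. Of 18 listed, 5 did not overlap with 5XFAD lower and 1 with 5XFAD higher, and the median was -0.05, ranging from -0.10 to -0.02 with 1 library left out. Bace1, the beta-secretase, was at 114 and 121 CPM in WT and 108 and 108 CPM in 5XFAD (-0.12 ± 0.07, unadjusted p = 0.0941). Aph1b, a subunit of gamma-secretase, was at 28.3 and 28.7 CPM against 26.4 and 22.6 CPM (-0.22 ± 0.09, unadjusted p = 0.0365, and 0.0914 without WT replicate 1). Mme, or neprilysin, an enzyme that degrades amyloid-beta, was among the 10 largest decreases at 9.60 and 2.21 CPM against 1.87 and 0.857 CPM (-2.12 ± 0.61, unadjusted p = 0.00458). The Mme value was -0.69 without WT replicate 1, with an unadjusted p of 0.188. Mme is also a gene of striatal neurons, and its high value lay in the library with the striatal markers.

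The 10 largest decreases were Ankk1, Gpr6, Mme, Htr1d, Ppp1r1b, Shb, Syt6, Tpbg, Inhba and Gm10451, chosen among 167 lower and 139 higher genes with an unadjusted p under 0.05, no overlap and at least 1 CPM in the higher group. Ankk1, a kinase gene next to Drd2, had 339 counts in WT and 1 in 5XFAD, which was at least 139-fold lower against a floor of 3 counts over the group, but its CPM was 2.07 in WT replicate 1 and 0.0116 in WT replicate 2. Ppp1r1b, the striatal phosphatase inhibitor DARPP-32, was at 295 and 61.2 CPM in WT and 57.7 and 50.3 CPM in 5XFAD (-1.72 ± 0.77). Gpr6, a receptor of striatal neurons, was at 12.6 and 0.809 CPM against 0.784 and 0.445 CPM (-3.45 ± 1.54). Without WT replicate 1, edgeR left 0 of the 10 at an unadjusted p under 0.05. The log2 fold change then was -0.16 for Ppp1r1b and -0.38 for Gpr6, but -0.74 for Inhba and -0.82 for Gm10451, whose WT libraries were alike and whose values had been -0.91 and -0.91. The 10 largest increases, chosen the same way, were Cst7, Clec7a, Itgax, Ccl3, Ccl6, Gm49339, Cd52, Thy1, H2-Q7 and Ccl9, and 9 of them, all but H2-Q7, kept such a p. Ccl9, a further chemokine gene, was at 0.822 and 0.844 CPM in WT and 2.19 and 1.92 CPM in 5XFAD (1.30 ± 0.36), and the unnamed gene Gm49339 at 0.184 and 0.133 CPM against 1.15 and 0.848 CPM (2.65 ± 0.70). Of all 306 candidates 44 lower and 58 higher genes kept an unadjusted p under 0.05.

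The whole striatal list followed. Its median was -2.04 with all libraries and -0.01 without WT replicate 1, and the within-sex medians were -2.69 for the male pair, which contains that library, and 0.00 for the female pair. Of its 15 genes, 5 did not overlap with 5XFAD lower, 4 reached an unadjusted p under 0.05, and Six3, a transcription factor that defines striatal neurons, was at 0 in each library of 3 months except WT replicate 1. Myelin genes went from a median of -0.34 to 0.16 without this library. Without WT replicate 2 the myelin median was -0.70.

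**Figure D3:**
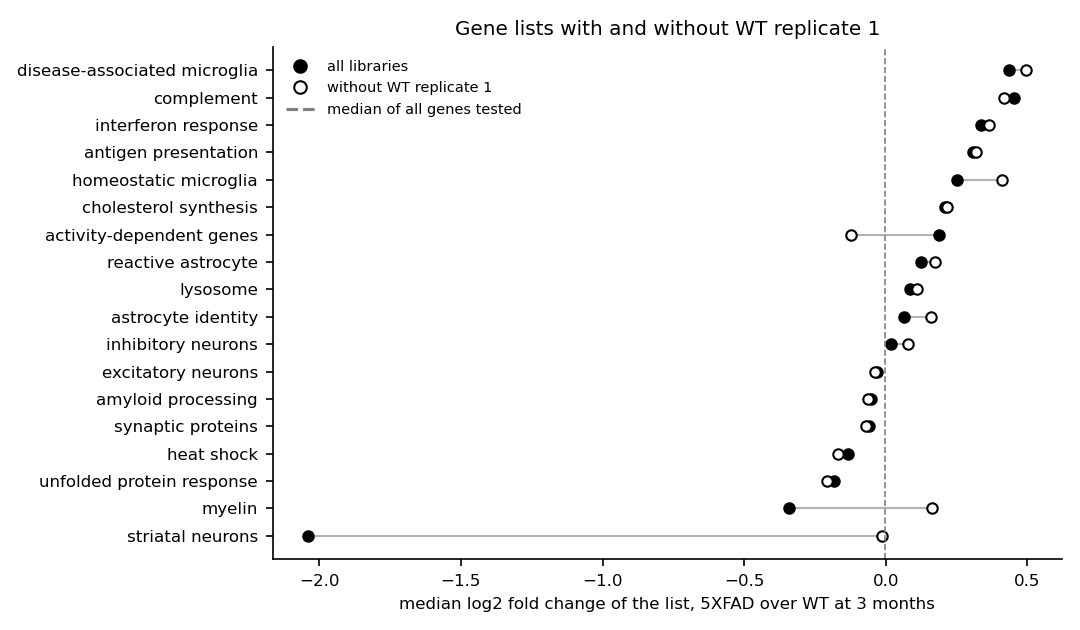
Median log2 fold change of 18 gene lists at 3 months (horizontal axis) with all libraries (filled circles) and without WT replicate 1 (open circles); the dashed line is the median of all genes tested. The striatal list moves from -2.04 to -0.01 and the myelin and activity-dependent lists change sign, while the immune, cholesterol synthesis and unfolded protein response lists keep their sign.

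Both sexes showed the microglial difference. The median of the 36 disease-associated genes was 0.35 in the male pair and 0.58 in the female pair, that of the unfolded protein response -0.25 and -0.20, and that of cholesterol synthesis 0.25 and 0.22. With 1 library on each side of a pair, a difference between the sexes was not tested. Of the largest increases, Cst7 had 5.66 and 4.77 and Clec7a 4.0 and 4.39 in the male and the female pair on the log2 scale with 0.1 CPM added, while H2-Q7 had 0.76 and 1.49.

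**Figure D4:**
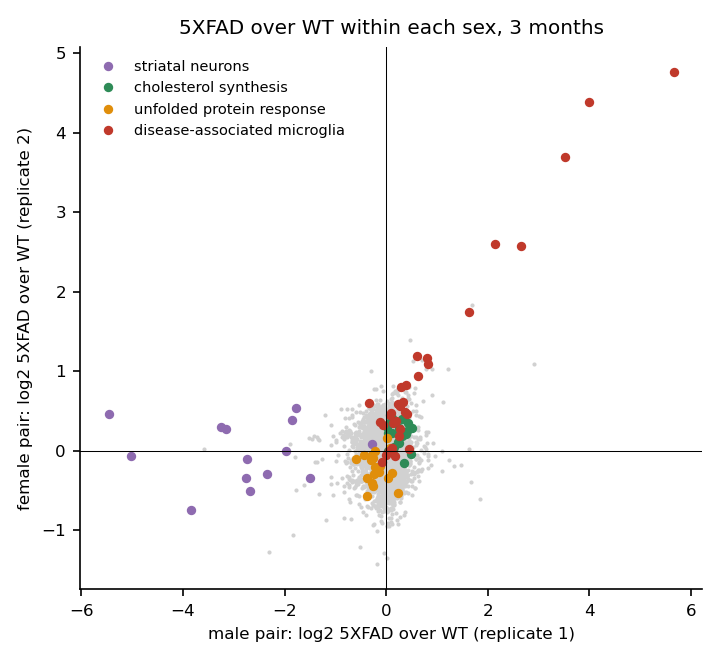
Log2 difference of 5XFAD over WT (with 0.1 CPM added) in the male pair (horizontal axis) and in the female pair (vertical axis); each point is a gene, grey points being genes with at least 10 CPM and coloured points members of 4 lists. Disease-associated microglia genes extend along the diagonal to 5.66 and 4.77 for Cst7, while striatal genes extend along the male axis alone.

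Most genes that were called higher at 6 months already lay higher at 3 months. The 6-month test, on other libraries, called 402 genes higher (1.86% of those tested) and 16 lower. Of the 402, 367 had a positive log2 fold change at 3 months, 257 (63.9%, against 13.3% of all genes) did not overlap with 5XFAD higher, 5 did not with 5XFAD lower, and 55 had an unadjusted p under 0.05. Their median was 0.36 at 3 months and 1.54 at 6 months. The 3-month median was 0.44 without WT replicate 1 and 0.26 without 5XFAD replicate 2, with 0.20 in the male and 0.45 in the female pair. The 5 genes that lay the other way at 3 months were Dcstamp, Soat1, Ifi207, Parp14 and M1ap. The 402 were chosen by the 6-month test, which by itself favours a larger value then. Growth with age can therefore not be read from these medians or the next count. Of the 402, 400 had a larger value at 6 months. The 2 exceptions, Mmp12 and Klrb1c, held 0 counts in both WT libraries of 3 months and 22 and 10 in 5XFAD, so their fitted values depend on the count added to each library.

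The 16 genes called lower at 6 months showed no such lead. Of them 6 were lower at 3 months, 3 without overlap, against 11.4% of all genes without overlap in that direction. Of 590 genes called higher at 12 months (2.74%), 442 had a positive value at 3 months and 262 (44.4%) did not overlap, while 44 did not overlap with 5XFAD lower, with a median of 0.18 against 1.31 at 12 months. That median was 0.06 in the male and 0.30 in the female pair, 0.30 without WT replicate 1 and 0.12 without 5XFAD replicate 2. Of 69 called lower at 12 months, 46 were negative at 3 months and 19 did not overlap. The sets called at 12 months were likewise chosen by their later values, with the spread again taken from all 15 libraries.

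The change of the genotype effect with age was tested directly. No gene passed adjustment under edgeR, for 6 minus 3 months or 12 minus 3 months, with 1161 and 2240 genes at an unadjusted p under 0.05, and DESeq2 called 62 and 225. Later libraries also differed in tissue marks and sex. Ttr was at 581 and 3535 CPM in 5XFAD replicates 1 and 2 of 6 months, against 0.68 to 14.6 CPM in WT. Drd2 was at 35.4 CPM in 5XFAD replicate 3 of 12 months. Both WT libraries of 12 months were female, whereas 5XFAD replicate 1 of that age was male. Of the 15 striatal genes, 5 had a higher effect at 6 than at 3 months at an unadjusted p under 0.05. How far this shaped the counts was not tested. Within the microglial list 27 of 36 genes had a larger effect at 6 than at 3 months at an unadjusted p under 0.05, against 3.8% of all genes. That list was chosen with earlier results of these data known, and 30 of its genes were called higher at 6 months. The share is therefore a description and not separate evidence. Values of single members follow, and no test compared members with each other. Clec7a had 5.33 at 3 and 6.65 at 6 months (difference 1.32, unadjusted p = 0.176), and Cst7 6.36 and 8.44 (2.08, unadjusted p = 0.185). Trem2 had 0.79 and 2.8 (2.02, unadjusted p = 0.00149), and Ctsd 0.43 and 1.90 (1.47, unadjusted p = 0.00262). Gfap had 0.90 and 3.31 (2.41, unadjusted p = 0.000321).

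**Figure D5:**
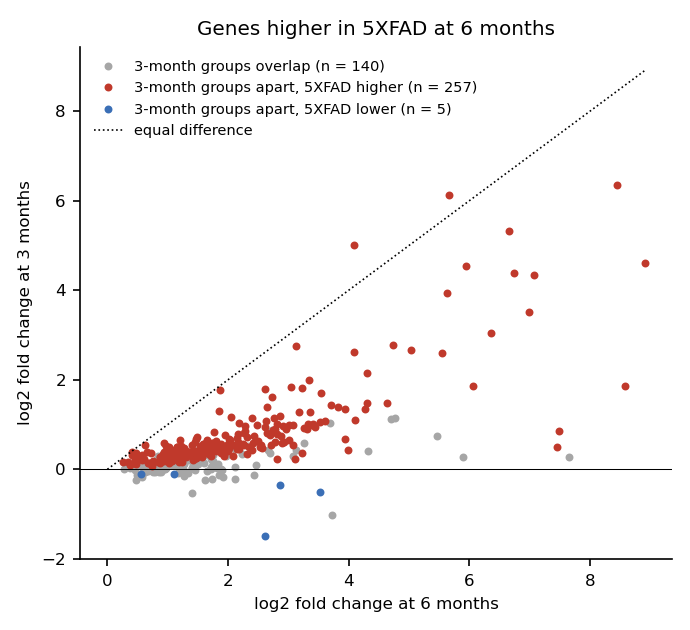
Log2 fold change at 3 months (vertical axis) against that at 6 months (horizontal axis) of the 402 genes called higher at 6 months, each point a gene, coloured by whether the 3-month groups were apart; the dotted line marks equal values. Of the points, 257 lie apart with 5XFAD higher at 3 months, and all but 2 lie below the dotted line. The genes were chosen by the 6-month test, which by itself favours a position below the line.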

How the data were processed

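The authors deposited whole-number counts per Ensembl gene for each library. Per the labels' protocols, Trizol RNA was depleted of ribosomal RNA in a stranded total RNA preparation and sequenced on an Illumina instrument as pairs of 100 bases, although the molecule field says polyA RNA. CASAVA, STAR, BWA and build mm9 are named per the submitters' processing notes; the counting program, its annotation and its use of strand are not given in the sources used here. From the counts, 32919 of 37991 genes were given a symbol (98.5% of counts). Of all 37991 genes, 21555 passed edgeR's filter on low counts (set at 10 per library and 15 in total). edgeR 4.0.16 (R 4.3.3) fitted 1 robust quasi-likelihood model with TMM scaling to the 6 groups of all 15 libraries, and the 3-month contrast, the 6-month and 12-month ones and the differences between ages were tested, two-sided, with Benjamini-Hochberg adjustment at 0.05 over all genes. DESeq2 1.42.0, other scalings and filters, the 3-month libraries alone, a sex term, a replicate block and fits without each library were alternatives. Each SE is the absolute log2 fold change divided by the square root of the test's F statistic, whose spread comes from all 15 libraries. Pair values add 0.1 CPM. Within-list values are counts and medians, with no test of a list.

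Some genes are not reported here. Members and 32 gene lists were chosen with earlier results of these data known. Named genes were the transgene-related genes, genes called by either tool, the 10 largest changes each way (unadjusted p under 0.05, no overlap, mean of at least 1 CPM in the higher group) and the 5 smallest p-values of each list, beside list members of known role and genes marked as chosen after their values were seen. Libraries had 105.2 to 226.7 M counts. Exact intervals and count floors describe counting error alone. Nothing in the labels states that replicates are separate animals. The 2 libraries of each 3-month group differ in sex, so they are not repeats of 1 animal. Later groups hold replicates of the same sex, whose spread may be technical. A p-value here, with its spread from all 15 libraries, measures only how these samples spread. Promoter sequences came from the RefSeq table of build GRCm38.p6, not mm9, and were matched by symbol. The 3-month libraries with the same number share a sex, and the labels say nothing more of pairing.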

Additional observations from a re-analysis of the deposited data

How the results depend on the processing

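Thy1 was called at 3 months under each alternative listed here. Against 1 call in the main model, a stricter filter (mean of at least 1 CPM) gave 3, DESeq2 on all libraries 10, edgeR on the 3-month libraries alone 4, and DESeq2 on these alone 27 (24 higher, 3 lower). Leaving out 1 library at a time gave 1 to 2 calls, the second being Kcnab1 without WT replicate 2. A replicate block gave 3 calls with all libraries (Thy1, Ccl6 and Cd52) and 117 with the 3-month libraries alone (54 higher, 63 lower). The deviations of same-numbered libraries correlated at 0.36 at 3 months, where 2 pairs share a number and a sex. For 6 minus 3 months, where edgeR called 0 genes, DESeq2 called 62. For 12 minus 3 months, where edgeR called 0, fitting with no filter gave 1, DESeq2 225 and the replicate block with all libraries 212. Among the named genes, 6 changed sign when 1 library was left out, all with overlapping groups: the log2 fold change then ran from -0.10 to 0.34 for Apoe, -0.12 to 0.12 for App, -5.11 to 0.17 for Drd2, -0.15 to 0.47 for Lpl, -0.0092 to 0.12 for Spp1 and -0.19 to 0.26 for Tmem119. A sex term took App to -3e-04. Medians of small size changed sign for the reactive astrocyte, activity-dependent and myelin lists as given above, and for inhibitory neurons (-0.04 with a sex term), excitatory neurons (0.01 with library totals), cholesterol regulators (0.07 without 5XFAD replicate 1) and astrocyte identity (-0.00 without 5XFAD replicate 2). Those of vascular and precursor markers are given below. The cause was not tested. Each genotype has 2 libraries at this age, and genes near 0 in WT, such as Cst7, Clec7a and Ccl4, rest on 5 to 20 counts a library there.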

Other observations

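Markers of other cells gave these medians. Vascular markers had a median of 0.01 with 1 of 16 genes not overlapping, which was 0.19 without WT replicate 1, -0.09 without WT replicate 2 and -0.06 without 5XFAD replicate 2, and markers of oligodendrocyte precursors one of -0.07, which became 0.16 without WT replicate 1, 0.05 without 5XFAD replicate 1 and -0.23 without 5XFAD replicate 2. The 12 proliferation genes had a median of 0.17 with 4 not overlapping with 5XFAD higher (0.29 without WT replicate 1 and 0.38 without 5XFAD replicate 1), and the 15 circadian clock genes one of -0.13 with 3 not overlapping with 5XFAD lower (from -0.19 to -0.05 with 1 library left out). Markers of choroid plexus and meninges had a median of 0.20, with 5 of 17 not overlapping with 5XFAD higher, and from 0.15 to 0.26 with 1 library left out.

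Further genes were chosen after their values were seen, and no explanation was tested for them. Nptxr, the neuronal pentraxin receptor of synapses, was at 12.0 and 14.9 CPM in WT and 28.1 and 30.6 CPM in 5XFAD at 3 months, a log2 fold change of 1.12 ± 0.28 (unadjusted p = 0.00172). The other ages showed no such difference, with -0.09 at 6 and -0.45 at 12 months, and the difference between the effects was -1.21 (unadjusted p = 0.00537) and -1.57 (unadjusted p = 0.00125). The WT libraries stood at 30 to 37.3 CPM at 6 months and 16 to 20.3 CPM at 12 months, so the WT level itself varied with age by as much as the genotypes differed.

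Sstr2, a somatostatin receptor of cortical neurons, was at 27.2 and 28.2 CPM in WT and 16.3 and 21.0 CPM in 5XFAD (-0.57 ± 0.13, unadjusted p = 0.000737), and kept -0.57 without WT replicate 1 (unadjusted p = 0.00514). It was -0.44 at 6 and -0.34 at 12 months. Among the lower genes it was thus one whose value did not move with the library that held the striatal markers. Gpr65, a proton-sensing receptor of immune cells, was at 0.0675 and 0.0693 CPM against 0.294 and 0.318 CPM (2.15 ± 0.49, unadjusted p = 0.000766), and at 4.30 on the log2 scale at 6 months.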
